A study of Mus musculus and Homo sapiens with 19 samples.

Results

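The genes described here are 10 genes that mark endothelial cells, the cells that line blood vessels: Cdh5, Pecam1, Kdr, Flt1, Tie1, Tek, Vwf, Plvap, Sox17 and Sox18. They were taken as the rows whose symbol equals one of these names, in upper case for human cells, and all 10 were present in each table. The co-culture tables held 55573 genes, and all 10 members had a count there. The knockdown table held 24421 genes and gave a count to 9 members, and the MDA-MB-231 table held 57992 genes and gave a count to 7.

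Endothelial cells are held together by junction proteins such as VE-cadherin, which Cdh5 encodes, and CD31, which Pecam1 encodes. They receive vascular endothelial growth factor through the receptor tyrosine kinases VEGFR2 (Kdr) and VEGFR1 (Flt1), and angiopoietins through Tie2 (Tek), which its relative Tie1 modulates. Von Willebrand factor (Vwf) is stored and secreted by endothelial cells for platelet adhesion, Plvap builds the diaphragms of fenestrae and caveolae, and Sox17 and Sox18 are transcription factors of vessel development.

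The samples address PHGDH, the first enzyme of serine synthesis, whose level was altered in tumour cells, and the growth of tumour cells together with endothelial cells. 4T1 and EMT6.5 derive from mouse mammary tumours, MDA-MB-231 from a human breast cancer, and Bend3 from mouse endothelium. The 19 libraries were 3 of 4T1 with the pLKO.1 vector carrying an shRNA against PHGDH (shPHGDH), 3 of 4T1 with the same vector carrying a scrambled shRNA (shSCR), 3 of MDA-MB-231 labelled as carrying PHGDH cDNA in pLHCX, 3 of MDA-MB-231 controls, and 7 of the co-culture set. In the last set, 1 library each was made of 4T1 and EMT6.5 sorted from co-culture with Bend3, of Bend3 sorted from each of these co-cultures, and of each line alone. Neither the stains behind the sort, nor the length of co-culture, nor the number of clones was given in the sources used here. The labels do not say that replicates were separate cultures, so the p-values reflect spread among libraries that may be technical.

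Phgdh had 328, 254 and 441 counts in the shPHGDH libraries, against 2446, 2968 and 3135 in the shSCR libraries. In MDA-MB-231 the target went against its label, with 4.44 to 5.88 counts per 1000000 gene counts (CPM) of PHGDH in the libraries labelled PHGDH-overexpressing and 15.8 to 18.5 CPM in controls, and no direction drawn from those libraries can be tied to PHGDH. Phgdh was at 4.92 CPM in 4T1 sorted from co-culture and 15.1 CPM in 4T1 alone, at 2.13 CPM in sorted EMT6.5 and 6.52 CPM in EMT6.5 alone, and at 32.3 and 28.7 CPM in Bend3 sorted from 4T1 and from EMT6.5 and 37.0 CPM in Bend3 alone. Gene counts summed to 12.7 to 20.5 M per library in the knockdown, 19.5 to 23.8 M in MDA-MB-231 and 4.27 to 7.67 M in co-culture. In co-culture 48.2% to 55.3% of entries were alignments without a unique place in the genome, against 3.54% to 3.70% in MDA-MB-231. The summed CPM of a list of 30 other endothelial genes was 12530 and 13166 in sorted Bend3 and 10493 in Bend3 alone. In the tumour libraries it was 141 to 295 CPM, so the labelled cell types matched these markers.

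The promoters of the receptor genes are shown because the receptors carry the comparisons that follow, and among them Flt1 stood apart from Kdr, Tie1 and Tek. RefSeq sequences of GRCm38.p6 were at hand for 4 of the 10 members, each from 250 bases before to 50 after a RefSeq start. They are 300 bases in all, printed in the direction of transcription. For Tie1 that start lies inside the gene bounds given below, which end at 118490061, so most of its window falls within the gene. Capitals mark CAGGAA, a form of the core bound by ETS factors, and ACAAT or ACAAAG, forms of the core bound by SOX factors, on either strand.
Kdr, chr5:75978406-75978705, minus strand: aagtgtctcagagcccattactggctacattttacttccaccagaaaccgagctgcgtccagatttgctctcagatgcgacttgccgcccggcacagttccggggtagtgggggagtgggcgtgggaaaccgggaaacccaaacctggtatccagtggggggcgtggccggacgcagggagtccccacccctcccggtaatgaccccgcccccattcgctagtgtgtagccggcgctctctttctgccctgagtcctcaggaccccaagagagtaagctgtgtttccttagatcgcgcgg
Flt1, chr5:147725962-147726261, minus strand: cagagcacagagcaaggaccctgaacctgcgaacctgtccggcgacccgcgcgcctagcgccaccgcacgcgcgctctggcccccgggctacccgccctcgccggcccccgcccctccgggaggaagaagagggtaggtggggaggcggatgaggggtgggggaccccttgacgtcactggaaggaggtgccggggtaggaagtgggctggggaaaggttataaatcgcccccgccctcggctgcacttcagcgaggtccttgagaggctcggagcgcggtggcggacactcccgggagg
Tie1, chr4:118489800-118490099, minus strand: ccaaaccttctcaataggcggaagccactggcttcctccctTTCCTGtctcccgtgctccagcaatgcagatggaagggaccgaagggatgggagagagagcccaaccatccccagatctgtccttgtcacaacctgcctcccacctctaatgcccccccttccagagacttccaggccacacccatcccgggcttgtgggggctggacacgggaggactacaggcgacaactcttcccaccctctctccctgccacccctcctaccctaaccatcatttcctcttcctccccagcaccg
Tek, chr4:94739039-94739338, plus strand: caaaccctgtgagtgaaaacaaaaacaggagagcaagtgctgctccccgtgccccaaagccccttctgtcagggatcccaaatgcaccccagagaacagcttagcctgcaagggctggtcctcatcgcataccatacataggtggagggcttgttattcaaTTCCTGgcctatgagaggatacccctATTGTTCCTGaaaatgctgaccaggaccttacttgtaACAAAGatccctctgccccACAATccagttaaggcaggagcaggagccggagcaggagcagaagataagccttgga
The Tek promoter held 2 ETS forms and 3 SOX forms, and its second ETS form shares 1 base with a SOX form just before it. Tie1 held 1 ETS form and 0 SOX forms, and Kdr and Flt1 held 0 of either. Other forms of these cores were not looked for, so a 0 does not mean that a promoter lacks them. Of 32851 mouse promoters of this length, 30.55% held at least 1 ETS form, 5.866% at least 2 and 42.88% at least 1 SOX form. The share of G and C was 70.7% in the Flt1 promoter, 60.7% in Kdr, 60.3% in Tie1 and 52% in Tek.

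Endothelial genes were far more abundant in Bend3 than in either tumour line. Per length, in TPM (counts per base of exon, scaled to 1000000 per library), the order in Bend3 alone ran from Pecam1 at 1003 TPM through Kdr at 568, Cdh5 at 397, Tie1 at 294 and Plvap at 254 to Flt1 at 72.9, Tek at 38.4, Sox18 at 22.1, Sox17 at 4.48 and Vwf at 1.15 TPM. Pecam1 led in each of the 3 Bend3 libraries, at 1003 to 1631 TPM. The ranges of the 3 libraries overlapped for the neighbours Kdr (568 to 807 TPM) and Cdh5 (397 to 583 TPM), for Plvap (254 to 727 TPM) with Tie1, Cdh5 and Kdr, for Tek (38.4 to 64.4 TPM) with Sox18 (22.1 to 51.0 TPM), and for Sox17 (2.93 to 4.48 TPM) with Vwf (1.15 to 4.27 TPM). In 4T1 alone the highest member was Plvap at 32.9 TPM, then Flt1 at 21.7 and Kdr at 5.32 TPM. EMT6.5 alone also had Plvap first, at 37.1 TPM, followed by Kdr at 10.9 and Flt1 at 7.65 TPM.

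The junction genes were high in Bend3 and low in both tumour lines. Cdh5 (chr8:104101625-104144511, GRCm38) was at 700, 846 and 605 CPM in Bend3 with 4T1, with EMT6.5 and alone, against 8.67 and 2.56 CPM in 4T1 with Bend3 and alone and 7.47 and 7.17 CPM in EMT6.5 with Bend3 and alone. Pecam1 (chr11:106654217-106750628) was at 2988, 3503 and 2261 CPM in the same order of Bend3 libraries, against 30.9 and 8.36 CPM in 4T1 and 18.1 and 6.52 CPM in EMT6.5. Every Bend3 value lay above every tumour value for both genes.

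Among the receptors, Kdr (chr5:75932827-75978458) was at 2219, 2514 and 1857 CPM in Bend3 with 4T1, with EMT6.5 and alone, against 30.7 and 16.0 CPM in 4T1 with Bend3 and alone and 27.9 and 35.5 CPM in EMT6.5. Flt1 (chr5:147561604-147726011) was at 325, 391 and 357 CPM in Bend3, against 283 and 97.8 CPM in 4T1 and 30.7 and 37.3 CPM in EMT6.5. Flt1 in 4T1 from co-culture thus came close to the Bend3 libraries while 4T1 alone and both EMT6.5 libraries stayed well below. Tie1 (chr4:118471191-118490061) was at 480, 472 and 524 CPM in Bend3, against 3.05 and 1.39 CPM in 4T1 and 6.40 and 0.782 CPM in EMT6.5. Tek (chr4:94739289-94874976) was at 89.7, 105 and 65.5 CPM in Bend3, against 5.15 and 0.465 CPM in 4T1 and 2.77 and 3.91 CPM in EMT6.5. For Tie1 and Tek the lowest Bend3 library was above every tumour library.

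Plvap (chr8:71497765-71511752) was at 290, 498 and 183 CPM in Bend3 with 4T1, with EMT6.5 and alone, against 20.1 and 21.8 CPM in 4T1 with Bend3 and alone and 24.3 and 26.6 CPM in EMT6.5. Vwf (chr6:125546774-125686679) had 73, 136 and 32 counts in Bend3, against 5 and 3 in 4T1 and 0 and 0 in EMT6.5. Sox17 (chr1:4490931-4497354, overlapping Gm37587 on the opposite strand) had 29, 34 and 37 counts in Bend3, against 0 and 0 in 4T1 and 5 and 6 in EMT6.5. Sox18 (chr2:181669836-181671640) had 149, 164 and 62 counts in Bend3, against 0 and 0 in 4T1 and 1 and 0 in EMT6.5. These members also kept every Bend3 library above every tumour library, at low depth for Vwf, Sox17 and Sox18. The share of all genes whose groups separate in this way was not counted, here or in the knockdown and MDA-MB-231. Against the limit that 3 counts set in the tumour library, Sox18 in Bend3 alone was at least 18.6-fold higher than in 4T1 alone and at least 33.2-fold higher than in EMT6.5 alone. Sox17 was at least 11.1-fold higher than in 4T1 alone, and Vwf at least 17.1-fold higher than in EMT6.5 alone.

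With the cell line as the factor over all 7 libraries, 9 of the 10 members were higher in Bend3 than in both tumour lines at an adjusted p under 0.05 (edgeR's quasi-likelihood test with Benjamini-Hochberg adjustment over all genes), beside 12.1% of 13092 genes. The median log2 difference of the members was 6.92 against 4T1 and 6.54 against EMT6.5, and that of all genes was -0.04 and -0.01. The exception was Flt1, with a log2 difference of 3.57 (SE 0.47, adjusted p = 0.000468 by edgeR) against EMT6.5 but 1.05 (SE 0.41, adjusted p = 0.0737) against 4T1. Without the co-cultured 4T1 library the Flt1 difference from 4T1 was 2.05 (adjusted p = 0.000200 by edgeR), and without the library of 4T1 alone it was 0.49 (adjusted p = 0.148). Without the low-count filter and in DESeq2 it also passed (adjusted p = 0.00284 and 0.0336). Sox17 against EMT6.5 (log2 2.91, adjusted p = 0.0195 by edgeR) missed the threshold without EMT6.5 alone (0.116), EMT6.5 with Bend3 (0.0715), Bend3 alone (0.0656) or Bend3 with EMT6.5 (0.0509). Of the 27 other endothelial genes tested, 25 were higher than in 4T1 and 26 higher than in EMT6.5. All 12 epithelial genes tested were lower in Bend3 than in 4T1, and 5 of 12 were lower than in EMT6.5. The share of all genes called against each line separately was not taken, so these list counts have no background of their own.

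**Figure D1:**
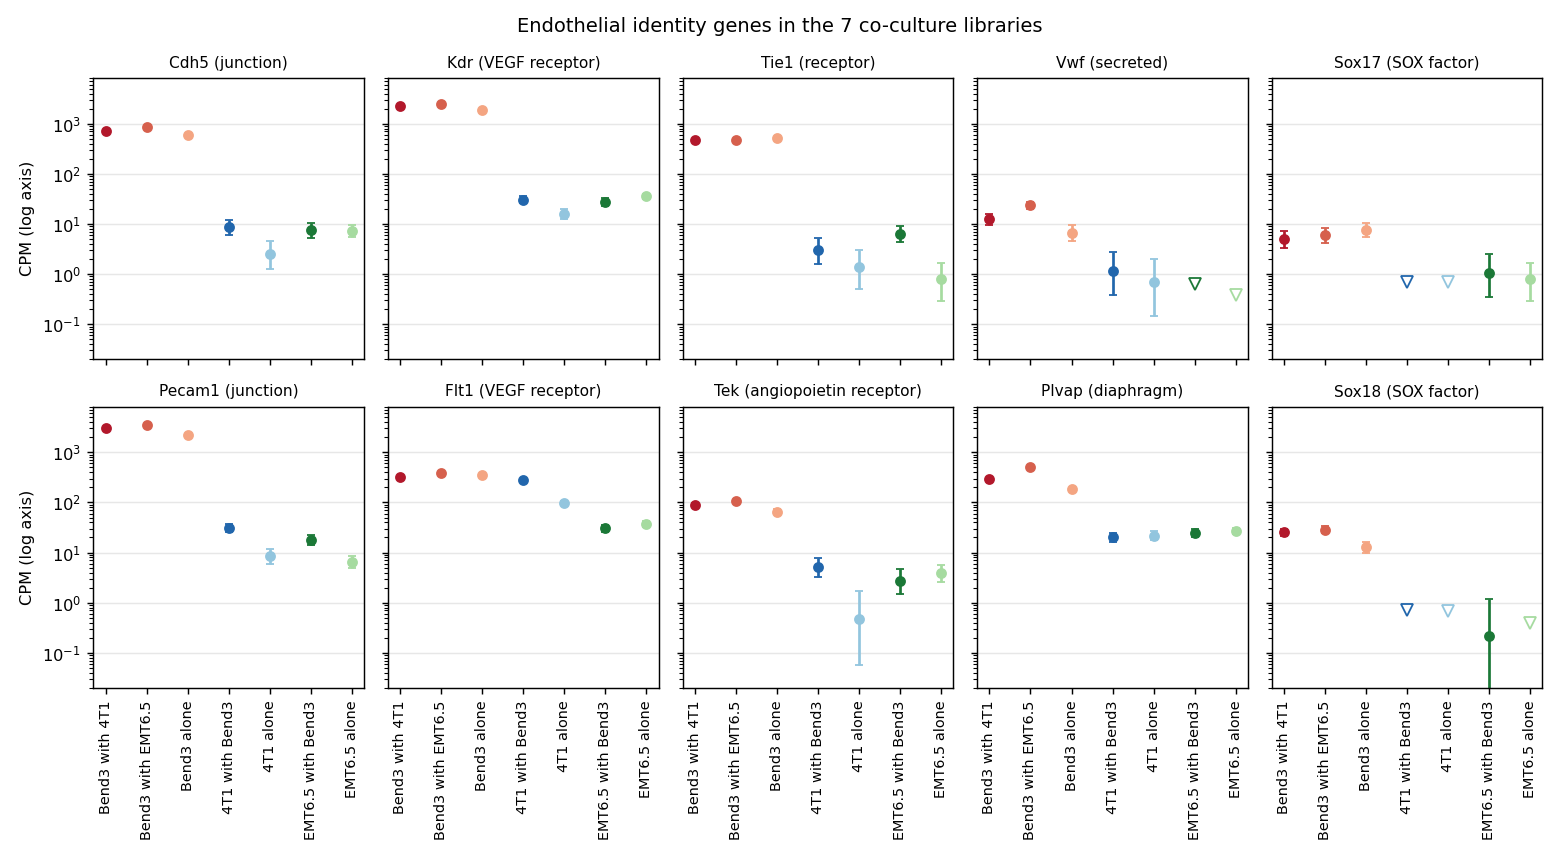
CPM on a log axis of each member in the 7 co-culture libraries, 1 point per library, with 95% exact Poisson intervals as bars (one for Sox18 runs below the axis); open triangles mark libraries at 0, drawn at the level of 3 counts. Every Bend3 point lies above every tumour point, and for Flt1 the sorted 4T1 library, at 283 CPM, lies close to the Bend3 libraries at 325 to 391 CPM.

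Sorted Bend3 had more of the junction genes, Kdr, Tek, Vwf, Plvap and Sox18 than Bend3 alone, and the excess was greater with EMT6.5 than with 4T1 for each of these 7. Tie1 was slightly lower with both partners, Flt1 moved little, and Sox17 was lower by less than its counting error. Each group here is 1 library, so a ratio compares libraries and has no replicate check, and its 95% exact interval covers counting error only. In bulk RNA, fewer cells of a type and less RNA per cell cannot be told apart.

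For the junction genes, the CPM ratio to Bend3 alone was 1.16 (1.10 to 1.21) with 4T1 and 1.40 (1.33 to 1.46) with EMT6.5 for Cdh5. Pecam1 had 1.32 (1.29 to 1.35) with 4T1 and 1.55 (1.51 to 1.59) with EMT6.5. Among the receptors, Kdr had 1.19 (1.16 to 1.23) and 1.35 (1.32 to 1.39), and Tek 1.37 (1.19 to 1.58) and 1.60 (1.39 to 1.84). In contrast, Tie1 had 0.915 (0.867 to 0.966) and 0.900 (0.852 to 0.950), below 1 with both partners. Flt1 had 0.912 (0.854 to 0.974) with 4T1 and 1.10 (1.03 to 1.17) with EMT6.5, on opposite sides of 1.

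The ratios furthest above 1 were those of secreted, diaphragm and transcription factor genes. Vwf had 1.86 (1.21 to 2.91) with 4T1 and 3.53 (2.39 to 5.36) with EMT6.5. Plvap had 1.59 (1.46 to 1.73) and 2.73 (2.53 to 2.94), and Sox18 1.96 (1.45 to 2.67) and 2.20 (1.63 to 2.99). Sox17, the other SOX factor, had 0.638 (0.378 to 1.07) and 0.763 (0.465 to 1.25), with intervals that reach past 1. Between the partners, Plvap was 1.72 times (1.62 to 1.82) and Vwf 1.90 times (1.42 to 2.56) as high in Bend3 from EMT6.5 as in Bend3 from 4T1, while the interval of Sox18 included 1 (1.12, 0.894 to 1.41).

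**Figure D2:**
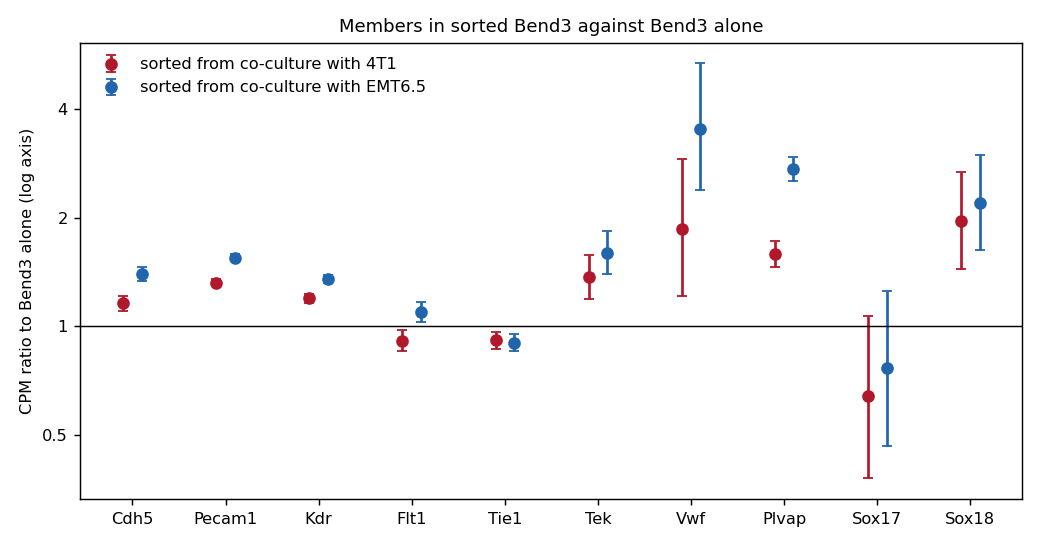
CPM ratio to Bend3 alone, on a log axis, for each member in Bend3 sorted from 4T1 and from EMT6.5; points are single libraries over 1 shared library of Bend3 alone and bars are 95% exact counting intervals. Vwf, Plvap and Sox18 lie highest, from 1.59 to 3.53, and Tie1 and Sox17 lie below 1 with both partners.

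Both ratios share the library of Bend3 alone, so a gene that was low there is higher in both. Over the 9965 genes that averaged 5 CPM or more in Bend3, 38.3% were higher with both partners and 32.9% lower with both, against 7 and 2 of the 10 members. The order EMT6.5, then 4T1, then alone, which 7 members followed, held for 20.4% of genes. A ratio of 2 or more was reached by 3 members with EMT6.5, where 2.56% of genes reached it, and by 0 members with 4T1, where 2.89% did. The median log2 ratio of the members was 0.33 with 4T1 and 0.56 with EMT6.5, and that of all genes was 0.01 and 0.04. Together the members took 7135 CPM with 4T1 and 8386 CPM with EMT6.5, against 5881 CPM in Bend3 alone.

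A test of what both partners share called 0 of the 10 members (edgeR, adjusted p under 0.05), and 0 of 14203 genes, a background of 0%. By unadjusted p under 0.05 the fit passed 1 member and 297 genes, and DESeq2 called 0 members. The member was Plvap, with a log2 difference of 1.11 (SE 0.37, adjusted p = 1 by edgeR). The lone library of Bend3 alone is assumed in this fit to vary like the others, whose biological coefficient of variation was 29.8%.

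Genes high in the tumour lines had counts in sorted Bend3, and whether this RNA came from tumour cells or from Bend3 itself was not tested. A tumour share was estimated from genes that reached 50 CPM in the co-cultured tumour line and stayed at or under 0.5 CPM in Bend3 alone. It was the median of their ratio between sorted Bend3 and that tumour library. This gave 1.69% of the 4T1 level (quartiles 0.934% to 2.51%, 96 genes) and 1.24% of the EMT6.5 level (0.817% to 2.02%, 117 genes). The 12 epithelial markers summed to 49.7 CPM with 4T1 and 7.30 CPM with EMT6.5, against 1.88 CPM in Bend3 alone. The 7 leukocyte markers summed to 281 and 225 CPM with 4T1 and with EMT6.5, against 403 CPM in Bend3 alone. Cd68 made up 396 CPM of the last sum. The 9 fibroblast and mural markers summed to 9.87 and 36.7 CPM with 4T1 and with EMT6.5, against 6.07 CPM in Bend3 alone. They were high in EMT6.5 itself, at 4330 CPM alone and 1607 CPM sorted, so they do not mark a cell type apart from that line. The part of both lists in the members' ratios was not tested. Taking the tumour share out of the sorted libraries changed no member's ratio by more than 1.72%. Of 26 other endothelial genes at 5 CPM or more, 18 were higher with both partners and 3 lower with both. Those most abundant in Bend3 alone were Egfl7 (ratios 1.01 and 1.12 with 4T1 and with EMT6.5), Cd93 (1.65 and 1.65), Nos3 (0.838 and 1.07) and Esam (0.965 and 1.13).

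In sorted tumour cells Pecam1 was higher than in the line alone for both 4T1 and EMT6.5. Flt1, Cdh5, Kdr and Tek were also higher in sorted 4T1, and in sorted EMT6.5 Tie1 was higher and Kdr lower, each by more than its counting error. Sorted 4T1 had 1210 Flt1 counts against 421 in 4T1 alone, a CPM ratio of 2.90 (2.59 to 3.25). The other ratios in 4T1 were 3.70 (2.54 to 5.51) for Pecam1, 3.39 (1.69 to 7.37) for Cdh5, 1.91 (1.42 to 2.60) for Kdr and 0.923 (0.681 to 1.25) for Plvap. Tek had 22 counts against 2 in 4T1 alone, a ratio of 11.1 with a counting interval of 2.73 to 97.3, and the intervals of Tie1 (2.19, 0.775 to 7.01) and Vwf (1.68, 0.327 to 10.8) included 1.

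EMT6.5 sorted from Bend3 had a Pecam1 ratio of 2.78 (1.94 to 4.03) to EMT6.5 alone, and Tie1, with 30 counts against 6, one of 8.18 (3.35 to 24.1). Kdr had 0.788 (0.635 to 0.975), Flt1 0.824 (0.670 to 1.01), Tek 0.709 (0.340 to 1.40), Plvap 0.915 (0.721 to 1.16) and Cdh5 1.04 (0.662 to 1.62). The summed members took 383 CPM in sorted 4T1 and 149 CPM in 4T1 alone, and 119 CPM in sorted EMT6.5 and 118 CPM in EMT6.5 alone.

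The shared effect of co-culture on both tumour lines called 0 of the 10 members by edgeR (adjusted p under 0.05), with 18 of 14203 genes called, a background of 0.127%. By unadjusted p under 0.05 it passed 2 members and 1738 genes. These were Pecam1, at log2 1.70 (SE 0.24, adjusted p = 0.0749 by edgeR), and Tie1, at log2 2.22 (SE 0.48, adjusted p = 0.164 by edgeR). DESeq2 called both, at adjusted p = 2.64e-06 and 0.00561, beside 3.38% of the 8696 genes it gave an adjusted p. Without EMT6.5 alone edgeR called 5 members, Flt1, Pecam1, Cdh5, Kdr and Tek, beside 11.1% of 13883 genes, and without sorted EMT6.5 it called the same 5, beside 11% of 14157 genes. Each of these fits sets 1 sorted 4T1 library against 1 library of 4T1 alone, and its spread comes from the Bend3 libraries, so the 5 calls have no replicate of the tumour cells behind them.

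Bend3 RNA left in sorted tumour cells would raise members in proportion to their level in the partner. Genes that reached 50 CPM in both sorted Bend3 libraries and stayed at or under 0.5 CPM in the tumour line alone gave its share. Sorted 4T1 held these at a median of 1.24% of the partner level (quartiles 0.577% to 2.51%, 89 genes), and sorted EMT6.5 at 0.478% (0% to 1.21%, 85 genes). The ratio of sums over the same genes was 2.01% in 4T1 and 1.51% in EMT6.5, so the share in EMT6.5 rests on how it is summarised.

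Measured the same way, the excess in sorted 4T1 over 4T1 alone was 0.873% of the partner's level for Cdh5, 0.755% for Pecam1, 0.661% for Kdr and 0.344% for Tie1, within or below the quartiles of the genes used for the estimate. Tek stood at 5.23%, above 80 of the 89 genes, on 22 counts. Vwf stood at 3.82%, on 5 counts, and Plvap at -0.582%. For Flt1 it was 57.1%, above all 89 genes, whose highest was 32.2%. Those genes were at or under 0.5 CPM in 4T1 alone, where Flt1 had 97.8 CPM, so this rank is not a like comparison. A mixture of 1.24% of the partner library with the remainder from 4T1 alone gives 101 CPM of Flt1, and the sorted library had 283 CPM (95% interval 268 to 300), 2.82 times that. The same mixture gives 45.4 CPM of Pecam1, 43.4 of Kdr and 11.2 of Cdh5, against 30.9, 30.7 and 8.67 CPM measured. Pecam1 and Kdr were thus below that level, as were Tie1 (3.05 against 7.35 CPM) and Plvap (20.1 against 25.2 CPM). Cdh5 was within its counting interval of the mixture, while Flt1 was the member furthest above in CPM. Tek, at 5.15 CPM against 1.58 CPM in the mixture, was 3.27 times its own. With the ratio of sums, 2.01%, the mixture gives 102 CPM of Flt1 and 2.26 CPM of Tek, both still below the measured levels. That share gives 16.6 CPM of Cdh5, above its interval (6.10 to 11.9 CPM). For Pecam1 and Kdr it gives 68.3 and 60.3 CPM, above the 30.9 and 30.7 CPM measured. Sox17 and Sox18, at 0 in both 4T1 libraries, were too low in Bend3 to show such a share, with mixtures of 0.0614 and 0.316 CPM under the limit of 0.703 CPM that 3 counts set.

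Sorted EMT6.5 exceeded EMT6.5 alone by 0.332% of the partner's level for Pecam1, 1.19% for Tie1 and 0.0353% for Cdh5. Flt1 (-1.68%), Tek (-1.09%, on 13 counts), Plvap (-0.455%) and Kdr (-0.299%) had lower values in the sorted library than in EMT6.5 alone. The 85 genes used for the estimate, whose lowest was -0.733%, were at or under 0.5 CPM in EMT6.5 alone. That limit left them little room to fall, so Flt1, Tek, Plvap and Kdr cannot be ranked against them. Sox17 was at 4.82% on 5 counts, Sox18 had 1 count and Vwf 0. Tie1 at 6.40 CPM (4.32 to 9.14) was 2.11 times the mixture with 0.478% of its partner, and with the ratio of sums, 1.51%, the mixture gives 7.87 CPM, so Tie1 was above or below it by the summary taken. Pecam1 at 18.1 CPM was 0.781 times the mixture with 0.478%. With 1.51% the mixture gives 59.2 CPM of Pecam1, 72.8 of Kdr and 19.8 of Cdh5, against 18.1, 27.9 and 7.47 CPM measured. The level in the line alone is part of this: Flt1 in 4T1 alone was already 27.4% of Bend3 alone and Plvap 11.9%, and in EMT6.5 alone Plvap was at 14.5%, Flt1 at 10.5% and Tek at 5.97%, whereas Pecam1 was at 0.370% and 0.288%. The 12 epithelial markers summed to 2140 CPM in sorted 4T1 and 2053 CPM in 4T1 alone, and to 649 CPM in sorted EMT6.5 and 890 CPM in EMT6.5 alone. The 9 fibroblast and mural markers summed to 1607 CPM in sorted EMT6.5 and 4330 CPM in EMT6.5 alone. In 4T1 they summed to 53.4 CPM sorted and 17.4 CPM alone. The part of both lists in these ratios was not tested.

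**Figure D3:**
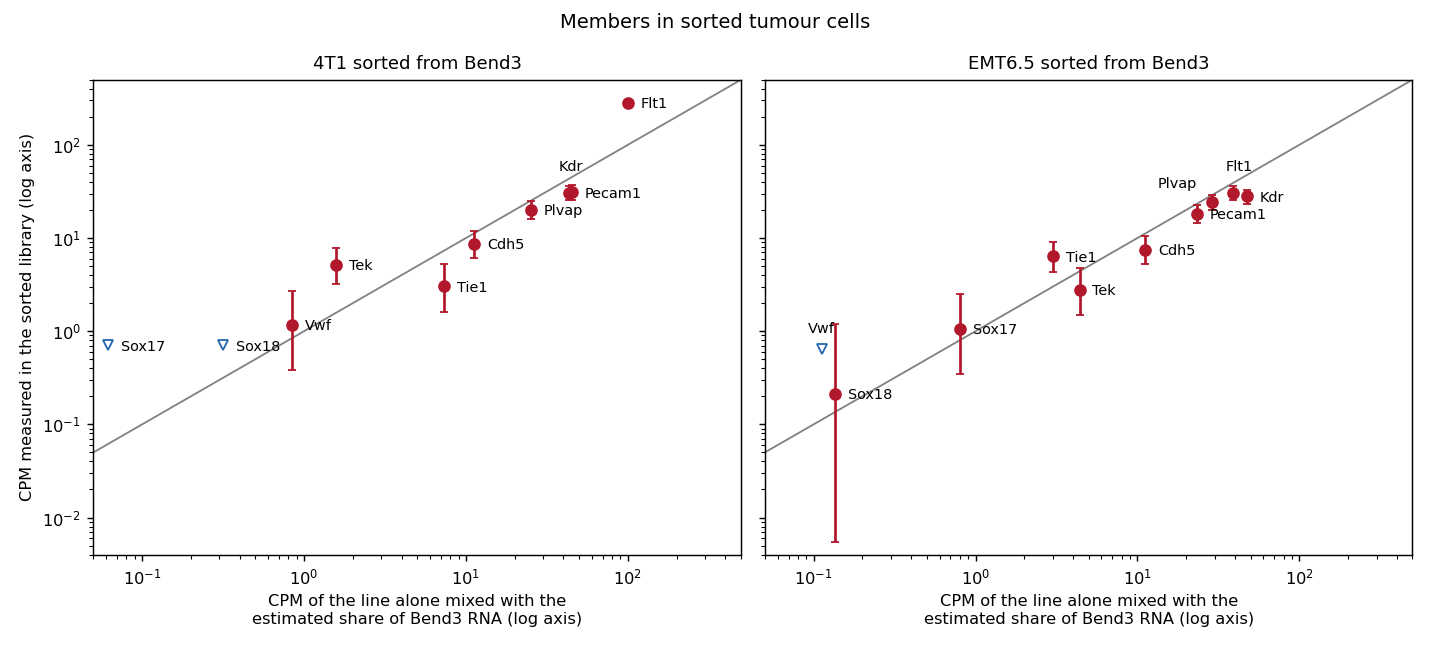
CPM measured in each sorted tumour library (vertical) against the CPM of a mixture of the line alone with a share of the partner's Bend3 library, 1.24% in 4T1 and 0.478% in EMT6.5 (horizontal), both on log axes; red points carry 95% exact Poisson intervals, open triangles are members at 0 drawn at the level of 3 counts, and the line marks equality. Flt1 in sorted 4T1, at 283 CPM against 101 CPM, is the highest point and lies above the line, as do Tek in 4T1, at 5.15 CPM against 1.58 CPM, and Tie1 in EMT6.5, at 6.40 CPM against 3.03 CPM; with a share of 1.51% Tie1 would lie below it, against 7.87 CPM.

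In the knockdown, Flt1 was the 1 member with enough counts to be tested, and it was higher in shPHGDH cells. The shPHGDH libraries had 40.7, 44.2 and 42.1 CPM, against 23.1, 25.6 and 27.8 CPM in the shSCR libraries, and the groups did not overlap. Flt1 averaged 42.3 ± 1.74 CPM in shPHGDH and 25.5 ± 2.36 CPM in shSCR libraries (SD, n = 3 each), and rose by 0.76 on the log2 scale (SE 0.064, adjusted p = 5.12e-11 by edgeR). With 59.7% of 11568 genes called in this comparison, 30.1% higher and 29.6% lower, a call for 1 member is near the background. The share of all genes whose groups do not overlap was not counted. Sequencing lane is unevenly spread, since 2 shSCR libraries ran on lane 5 and the other 4 libraries on lane 6. With lane as a covariate the value was 0.65 (adjusted p = 1.62e-07 by edgeR), and within lane 6 it was 0.64 (adjusted p = 2.19e-10). The median of 725 genes tested on chromosome 5, where Flt1 lies, was 0.005.

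The other members were at or near 0 in these 4T1 libraries. Summed over 3 libraries each, Cdh5 had 17 counts in shPHGDH and 6 in shSCR libraries, Pecam1 9 and 19, Tie1 5 and 8, Tek 3 and 5, Plvap 5 and 4, Kdr 3 and 0, Vwf 1 and 3, Sox18 1 and 0, and Sox17 0 and 0. Kdr was at 0 in every shSCR library and at 16.0 CPM in 4T1 alone of the co-culture set, and Plvap was at 0 to 0.158 CPM in shSCR libraries and 21.8 CPM in 4T1 alone. Flt1 was at 23.1 to 27.8 CPM in shSCR libraries and 97.8 CPM in 4T1 alone. Pecam1 was at 0.236 to 0.694 and 8.36 CPM, and Cdh5 at 0.0527 to 0.236 and 2.56 CPM. Tie1, Tek and Vwf were also higher in 4T1 alone, on few counts, and Sox17 and Sox18 were at 0 in both. These come from tables counted separately and are given side by side only.

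Of 30 other endothelial genes, 7 were tested; 5 were higher in shPHGDH cells, 1 was lower and 1 was not called, with a median log2 change of 0.52 beside -0.01 over all genes. The higher ones included Ecscr (log2 1.52), an endothelial signalling protein, Eng (0.52), a co-receptor of the TGF-beta family, and Egfl7 (0.48), a secreted vascular protein. Of the ligands of the member receptors, Vegfa (1.00) and Pgf (0.46), both ligands of VEGFR1, were higher, 0 were lower and 3 were not called. Beside these, 10 of 12 epithelial markers were lower and 2 higher, with a median of -0.66. Their part in the endothelial genes' values was not tested.

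MDA-MB-231 gave enough counts for TIE1, KDR and PECAM1, and all 3 differed: TIE1 and KDR were lower and PECAM1 higher in the libraries labelled PHGDH-overexpressing. TIE1 had 1, 0 and 0 counts in the libraries labelled PHGDH-overexpressing and 33, 27 and 21 in controls. The groups did not overlap, and summed counts of 1 and 81 give a CPM ratio of 0.0124 with a 95% exact counting interval of 0.000309 to 0.0708 (edgeR adjusted p = 2.57e-07). TIE1 was low even in controls, at 1.28 ± 0.186 CPM (SD, n = 3).

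KDR was at 7.15, 6.73 and 7.75 CPM in the libraries labelled PHGDH-overexpressing and at 15.0, 13.0 and 12.6 CPM in controls. The groups did not overlap, at 7.21 ± 0.514 CPM and 13.5 ± 1.32 CPM (SD, n = 3 each), a log2 change of -0.85 (SE 0.11, adjusted p = 2.70e-06 by edgeR). PECAM1 was at 8.97, 10.1 and 9.54 CPM in the libraries labelled PHGDH-overexpressing and at 6.40, 6.92 and 6.74 CPM in controls. Here too every library of one group lay above the other, at 9.54 ± 0.570 CPM and 6.69 ± 0.266 CPM (SD, n = 3 each), a log2 change of 0.58 (SE 0.12, adjusted p = 0.000377 by edgeR). The background was 44.5% of 17663 genes called, 21.6% higher and 22.9% lower. How many of all genes had groups that do not overlap was not counted, so the separation of TIE1, KDR and PECAM1 has no background. With library totals in place of TMM scaling, 3053 genes were called higher and 4900 lower, against 3816 and 4048 with TMM, and the 3 members kept their direction and call.

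CDH5, PLVAP and SOX17 had 0 counts in all 6 MDA-MB-231 libraries. Summed over the 3 libraries labelled PHGDH-overexpressing and the 3 controls, FLT1 had 0 and 1 counts, TEK 8 and 1, VWF 11 and 10 and SOX18 6 and 8. The member that rose in the 4T1 knockdown, Flt1, could therefore not be compared in the human line. Of 30 other endothelial genes 12 were tested, with 5 higher and 2 lower. These included LMO2 (log2 -2.45), a transcriptional cofactor of blood and endothelial cells, PTPRB (1.58), a phosphatase that acts on VE-cadherin and Tie2, EGFL7 (1.04) and CD34 (0.80), a surface sialomucin. Among the ligands 3 were lower, VEGFA (-0.90) and VEGFC (-0.63) with them, 2 were higher, VEGFB (0.63) and ANGPT1 (0.44), and 1 was not called. Of 9 epithelial markers tested 5 were higher and 3 lower, and their part in these values was not tested.

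**Figure D4:**
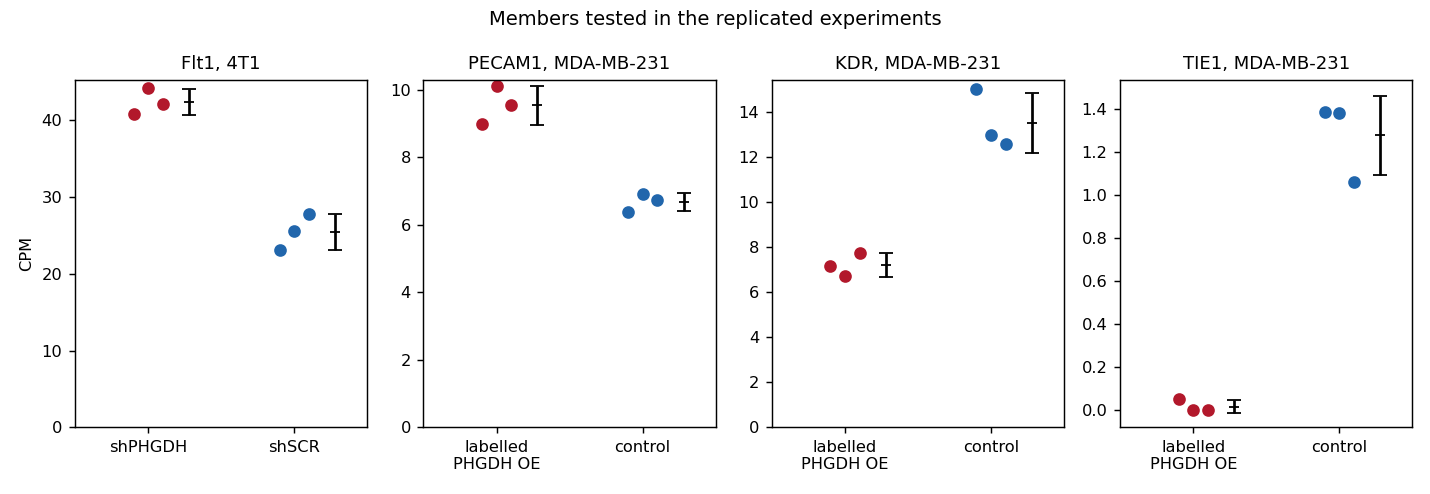
CPM per library (points) and mean ± SD (bars, n = 3) of the members tested in the replicated experiments: Flt1 in shPHGDH and shSCR 4T1 cells, and PECAM1, KDR and TIE1 in MDA-MB-231 libraries labelled PHGDH-overexpressing and controls. In each panel the groups do not overlap, and the share of all genes for which this holds was not counted. The lowest value is 0 CPM, for TIE1.

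The genes outside the list whose profile over the 7 co-culture libraries was closest to the members' mean profile were Klra4, Scarf1, Osbpl6, Pcdh12 and Fbp1. Likeness was the root mean square difference of log2(CPM + 1) after centring each gene, 0.192 to 0.244 for these 5 among 10744 genes, and the libraries share 3 cell lines. Klra4 was at 37.1, 37.9 and 29.7 CPM in Bend3 with 4T1, with EMT6.5 and alone, against 0 to 0.469 CPM in the tumour libraries. Scarf1, a scavenger receptor of endothelial cells, was at 107, 112 and 114 CPM in Bend3, against 1.63 to 4.69 CPM in the tumour libraries.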

How the data were processed

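The authors deposited raw gene counts for all 19 libraries; per the submitters' processing notes, Trim Galore 0.5.0, HISAT2 2.1.0 and HTSeq were used, with GRCm38 for mouse. The human build and the counting settings, strand included, are not given in the sources used here. Stranded mRNA libraries were made from 1 µg of RNA and read once over 50 bp, per the labels' protocols. The knockdown table held 10 further columns that no label names, which were not used. Summary lines stayed out of library sizes.

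CPM used total gene counts. TPM used union exon lengths from GENCODE vM21, which covered 99.1% of co-culture gene IDs. Tests over all genes used the quasi-likelihood F-test of edgeR 4.0.16 (R 4.3.3), after TMM and the default filter on low counts, without a replicate block; both co-culture effects came from 1 model of cell line, co-culture in tumour cells and co-culture in Bend3. DESeq2 1.42.0, library totals, no filter, lane and leaving out each library were tried. The fits were also run on counts simulated with the spread estimated from these same libraries, which cannot check the spread assumed for groups of 1 library. Single libraries were compared by CPM ratios with 95% exact conditional binomial intervals, computed with scipy; intervals and the floor of 3 counts cover counting error only, as no molecular identifiers were used. Ratios to be counted needed a mean of 5 CPM.

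The members and lists were chosen with earlier results of these data known. All members are described; from other lists at most 4 genes are named, those called with the largest change and a mean of at least 1 CPM, or with the highest CPM in Bend3 alone.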

Additional observations from a re-analysis of the deposited data

Results flagged for a closer look

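A few members had ratios on opposite sides of 1 in the libraries of the same contrast, and the difference itself was not tested because each library stands alone. Kdr had a CPM ratio of 1.91 in 4T1 sorted from co-culture over 4T1 alone and of 0.788 in EMT6.5 sorted from co-culture over EMT6.5 alone. Flt1 had 2.90 in 4T1 and 0.824 (0.670 to 1.01) in EMT6.5. Tek had 11.1 in 4T1, on 22 counts over 2, and 0.709 (0.340 to 1.40) in EMT6.5, on 13 counts over 30. The EMT6.5 intervals of Flt1 and Tek include 1. In Bend3, Flt1 had a ratio to Bend3 alone of 0.912 when sorted from 4T1 and of 1.10 when sorted from EMT6.5. With TMM scaling these were 0.909 and 1.07.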

How the results depend on the processing

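In the replicated experiments the calls of Flt1 in the knockdown and of TIE1, KDR and PECAM1 in MDA-MB-231 held in every alternative run, from 0.64 to 0.83 on the log2 scale for Flt1, -7.75 to -5.30 for TIE1, -0.91 to -0.77 for KDR and 0.52 to 0.62 for PECAM1. Replicate numbers did not pair the libraries (libraries of the same number had correlations of deviations from -0.055 to 0.038, and not every library correlated best with its own number), and with the replicate number as a block Flt1 was at 0.77, TIE1 at -5.83, KDR at -0.85 and PECAM1 at 0.57, with 6612 genes called in the knockdown and 7841 in MDA-MB-231. Without single libraries 6321 to 6617 and 6597 to 8108 genes were called. No paired analysis was possible in co-culture because each group is 1 library.

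Of the members, 8 to 10 were called in Bend3 against both tumour lines without single libraries. The share of all genes called higher was taken only for the fit to all 7 libraries, at 12.1% of 13092, so these counts have no background of their own. In the co-culture effect shared by the tumour lines, 0 to 5 members were called without single libraries. DESeq2 called 2 members in that effect, beside 3.38% of genes. The 5 were called without either EMT6.5 library, beside 11.1% and 11% of genes, where the tumour effect has no replicate. In that effect, signs turned without either 4T1 library, which leaves EMT6.5 to set the value: Tek was then at -0.46 and -0.46, Flt1 at -0.25 and -0.25, and Kdr at -0.31 and -0.31. Leaving out each library in turn, Tek ranged from -0.46 to 3.41, Flt1 from -0.25 to 1.54 and Kdr from -0.31 to 0.94. In the effect shared by both Bend3 co-cultures Flt1, at 0.01, was at -0.021 in DESeq2 and at -0.10 without Bend3 from EMT6.5 (-0.10 to 0.11 over the libraries left out); the cause was not tested. The share of Bend3 RNA in sorted EMT6.5 was 1.51% as a ratio of sums, against 0.478% as a median. In CPM the median gene was at log2 -0.21 in Bend3 alone against 4T1 alone and at -0.18 against EMT6.5 alone, far less than the members. Single libraries and 4.27 to 7.67 M counts limit Vwf, Sox17, Sox18 and, in tumour cells, Tek and Tie1 most.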
